A study of Mus musculus with 19 samples.

Results

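Expression of 9 transcription factors that define intestinal identity was examined in crypts of fed and fasted mice with and without neurotensin. These factors, Hnf4a, Hnf4g, Cdx1, Cdx2, Gata4, Gata6, Klf4, Klf5 and Elf3, were listed by name and matched by symbol to the Ensembl gene IDs of GRCm38 that the deposited files use. They are 9 of the 55487 genes in the files, and 9 of 9 were among the 17875 genes that passed the filter on low counts, with at least 818 counts in every mouse. The list takes genes by name and not by a measured value, although it was chosen with earlier results of these data known.

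Epithelial cells of the intestine are renewed from stem cells at the crypt base, and their progeny divide in the crypt and then mature as they move onto the villus. The caudal homeobox factors CDX1 and CDX2 set and hold intestinal identity and keep stomach genes silent. The nuclear receptors HNF4A and HNF4G bind enhancers of enterocyte genes and together drive brush border and lipid genes, while the zinc finger factors GATA4 and GATA6 pattern the epithelium along the length of the gut. Within the crypt-villus axis KLF5 is known from dividing crypt cells and KLF4 from goblet cells and mature surface cells, and ELF3 is an epithelial ETS factor needed for normal villus maturation.

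Each library came from the small intestinal crypts of 1 mouse, a male or female of the C57BL/6 strain. NT+/+ mice carry the wild-type neurotensin gene and NT-/- mice lack it, and within each genotype mice either fed ad libitum or had water alone for 48 hours (fasted). The groups held 5 ad libitum–fed NT+/+, 4 ad libitum–fed NT-/-, 5 fasted NT+/+ and 5 fasted NT-/- mice. Crypts were released with EDTA from the proximal part of the small intestine, so each library averages all the cells of a crypt preparation, and fewer cells of a type cannot be told apart from less RNA per cell.

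The total count per mouse ranged from 9059418 to 35068669 (median, 18541770). Nts, the targeted gene, which encodes neurotensin, lay between 4.98 and 8.59 CPM (counts scaled to a fixed library total, with TMM scaling between libraries) in NT+/+ mice and between 0.144 and 0.793 CPM in NT-/- mice. Fasted NT+/+ mouse 5 carries an NT-/- genotype label beside an NT+/+ title. Its Nts level was 5.43 CPM, and the title decided its group. In ad libitum–fed NT+/+ mouse 1 a single gene, CT010467.1, took 11.5% of the counts, against 1.66% to 2.94% for the top gene of any other mouse. Of the crypt cell types, the summed Paneth markers reached at least 15392 CPM and the summed stem cell markers at least 939 CPM in every mouse, while stromal, muscle and endothelial markers summed to 8.01 to 18.2 CPM and pancreas markers to at most 0.168 CPM. Villus tip markers summed to 707 to 4857 CPM and leukocyte markers to 74.1 to 246 CPM. Whether this RNA came from cells beyond the crypt was not tested.

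The 9 factors were abundant transcripts. Levels of different genes were compared in TPM, a transcript unit that accounts for gene length. In ad libitum–fed NT+/+ crypts the mean level ran from 254 ± 15.97 TPM for Hnf4a (SD, n = 5) down to 35.9 ± 5.64 TPM for Klf4, and between 83.7% and 98.0% of all tested genes were lower. Hnf4a was followed by Klf5 at 247 ± 22.9 TPM and Elf3 at 213 ± 12.9 TPM, and the ranges of neighbours among these 3 genes overlapped. Hnf4g stood at 113 ± 31.6 TPM, below Elf3 without overlap, and overlapped with Cdx1. Cdx1 at 75.5 ± 5.56 TPM, Cdx2 at 70.3 ± 8.76 TPM and Gata4 at 59.0 ± 9.72 TPM formed the next step, each overlapping with its neighbour. Gata6 at 37.4 ± 5.11 TPM lay below Gata4 without overlap and overlapped with Klf4. The same first 4 genes and the same last 3 genes stood in this order in ad libitum–fed NT-/- crypts.

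After fasting the top of the order differed. In fasted NT+/+ crypts Klf5 stood first at 260 ± 50.8 TPM, then Hnf4a at 209.7 ± 10.1 TPM, Hnf4g at 179.9 ± 46.8 TPM and Elf3 at 159 ± 27.9 TPM. Neighbours within these 4 overlapped, and Elf3 remained above Cdx2 at 82.1 ± 8.96 TPM without overlap. In fasted NT-/- crypts the same 4 genes led in the same order, with Hnf4g at 193.9 ± 43.4 TPM and Elf3 at 125 ± 25.7 TPM. Hnf4g was thus above Elf3 in 3 of 5 fasted NT+/+ mice and in 5 of 5 fasted NT-/- mice, whereas Elf3 was above Hnf4g in every ad libitum–fed mouse of both genotypes.

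**Figure D1:**
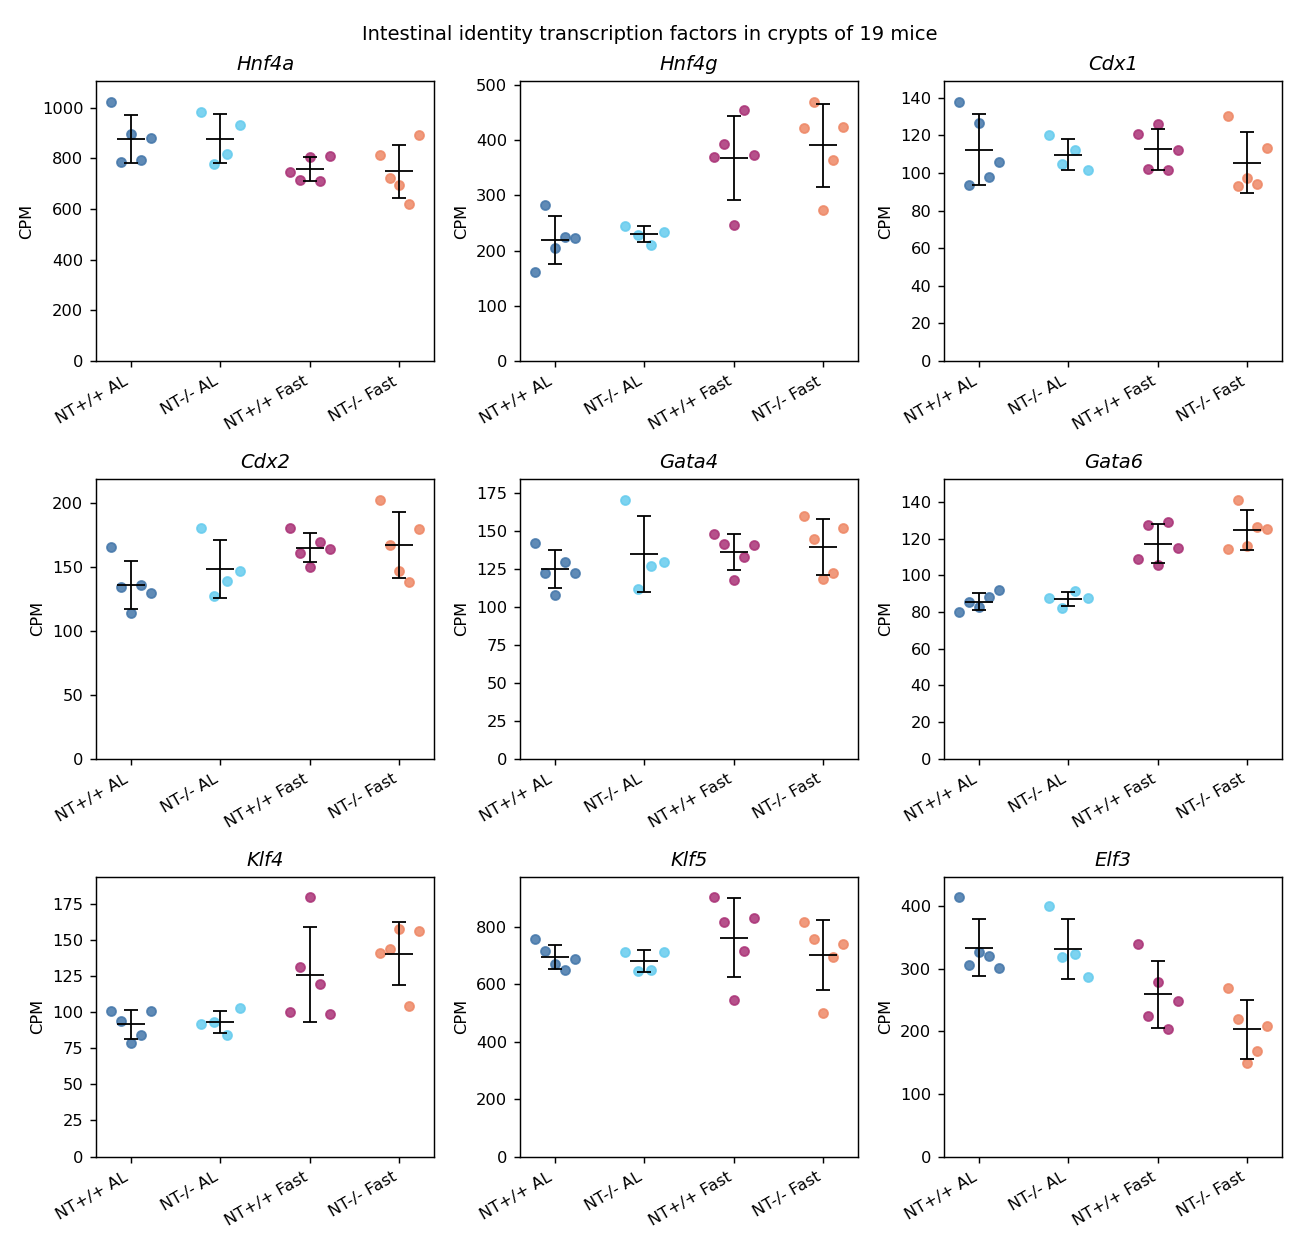
Level of each of the 9 factors in every mouse, in CPM (vertical axis, from 0), by genotype and diet (horizontal axis). Each point is 1 mouse, and black marks show the mean and SD of 5 mice, or of 4 for ad libitum–fed NT-/- mice; fasted mice lie above all fed mice of their genotype for Gata6 in both genotypes and for Hnf4g and Klf4 in NT-/- mice, and below them for Elf3 in NT-/- mice.

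Setting fasted beside ad libitum–fed mice asks how nutrient deprivation changes these factors in each genotype. In NT+/+ crypts fasting raised Hnf4g, Gata6 and Klf4, and no factor was called lower (edgeR without a block, adjusted p under 0.05). In NT-/- crypts the same 3 factors rose and Elf3 fell. These tests had no block for the number that opens each deposited file, although same-numbered fed and fasted mice of a genotype deviated together. With that number as a block Cdx2 also rose and Hnf4a also fell in each genotype and Elf3 fell in both, so that 6 of 9 factors were called in each, beside 30.7% of all genes in NT+/+ and 31.7% in NT-/- mice. The counts without the block, 3 of 9 and 4 of 9, stand beside 21.6% of all tested genes called in NT+/+ mice (11.2% higher, 10.4% lower) and 25.2% in NT-/- mice (12.5% higher, 12.6% lower). At an unadjusted p under 0.05 there were 5 of 9 factors in each genotype, beside 34.1% of all genes in NT+/+ and 36.5% in NT-/- mice. The median log2 fold change of the 9 factors was 0.13 in NT+/+ and 0.05 in NT-/- mice, and that of all tested genes was -0.01 and -0.02. Fed and fasted groups did not overlap for 1 factor in NT+/+ mice, where 14.6% of all genes did not overlap, and for 4 factors in NT-/- mice, where 21.3% did not. The split of all called genes in NT+/+ mice was 2010 higher and 1852 lower, and with limma on log2 TPM values it was 945 higher and 1479 lower, while of the 9 factors limma called 1 higher and 2 lower there.

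**Figure D2:**
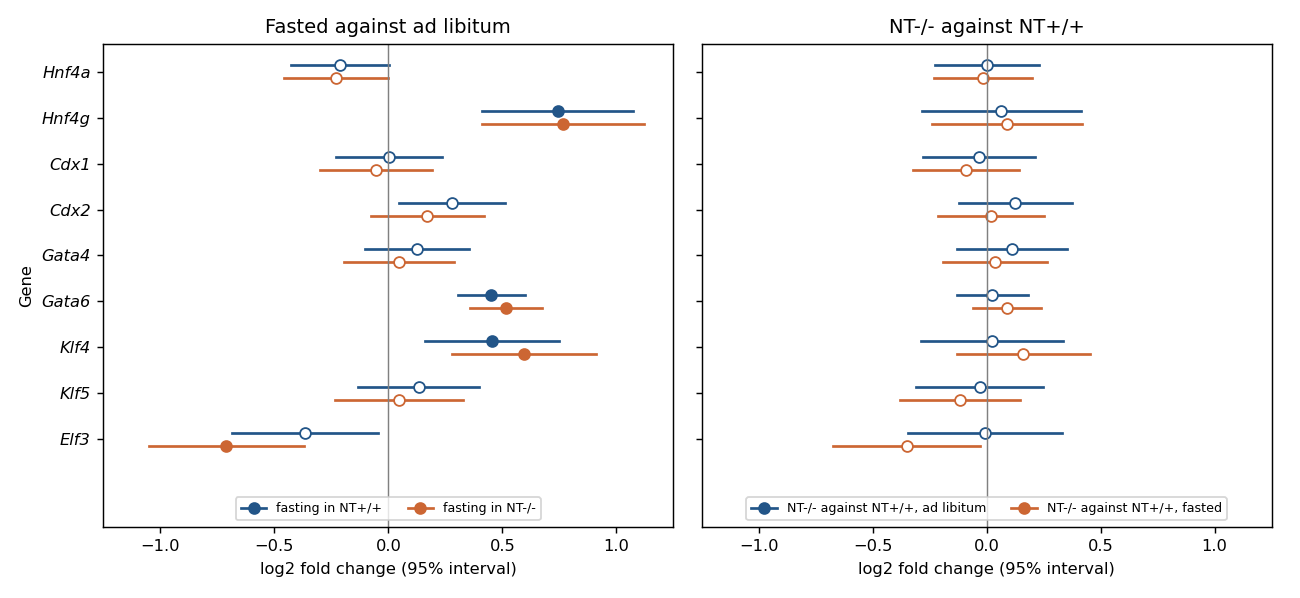
Log2 fold change of each factor (horizontal axis, with 95% intervals as lines) for the fasting comparison within each genotype (left) and for NT-/- against NT+/+ mice in each diet (right). Filled points are genes called by edgeR without a block at an adjusted p under 0.05; Hnf4g, Gata6 and Klf4 are filled in both genotypes on the left, Elf3 in NT-/- mice, and no point is filled on the right.

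Of the HNF4 pair, Hnf4g rose and Hnf4a did not pass the test without a block. Hnf4g, a nuclear receptor largely restricted to the gut epithelium (chr3:3508030-3658052), stood at 162, 283, 205, 225 and 223 CPM in ad libitum–fed NT+/+ mice 1 to 5 and at 370.1, 394, 246, 454 and 373 CPM in fasted NT+/+ mice 1 to 5. Only fasted mouse 3 lay within the fed range, below fed mouse 2. Hnf4g rose by 67.4% in NT+/+ mice, a log2 fold change of 0.74 ± 0.16 (SE; adjusted p = 0.00231, edgeR). In NT-/- mice it stood at 245, 229, 211 and 233 CPM in the 4 fed mice and at 422, 469.6, 273, 365 and 423 CPM in the 5 fasted mice, with no overlap. The rise there was 70.1%, a log2 fold change of 0.77 ± 0.17 (adjusted p = 0.00249, edgeR).

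Hnf4a, the more widely expressed partner (chr2:163506808-163572910), had values of 1023, 786, 897, 793 and 881 CPM in fed NT+/+ mice and 746, 714, 804, 709 and 809.9 CPM in fasted NT+/+ mice. Among NT-/- mice the fed values were 984, 779, 817 and 929.6 CPM, and the fasted values were 814, 722, 695, 621 and 890.3 CPM. Fed and fasted ranges overlapped in both genotypes. The log2 fold change was -0.21 ± 0.10 in NT+/+ mice (adjusted p = 0.155, edgeR) and -0.23 ± 0.11 in NT-/- mice (adjusted p = 0.136, edgeR), with 95% intervals of -0.43 to 0.0041 and -0.46 to -0.000545. With the file number as a block Hnf4a was called lower in both, by -0.21 ± 0.07 in NT+/+ (adjusted p = 0.0394, edgeR) and -0.23 ± 0.08 in NT-/- mice (adjusted p = 0.0299, edgeR), and it was lower when fasted in 5 of 5 and 4 of 4 same-numbered pairs. On log2 TPM values limma called Hnf4a lower in NT+/+ mice, by -0.27 (adjusted p = 0.0331).

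Of the GATA factors, Gata6 rose, with the smallest standard error of the 9 factors in each genotype. Gata6, on chromosome 18, encodes a zinc finger factor of endoderm and of crypt cells. Its level was 80.3, 85.6, 82.5, 88.1 and 91.9 CPM in fed NT+/+ mice and 109 CPM, 127 CPM, 105 CPM, 129 CPM and 115 CPM in fasted NT+/+ mice. Fed NT-/- mice stood at 87.5, 82.3, 91.5 and 87.5 CPM and fasted NT-/- mice at 115, 141, 116, 127 and 125 CPM. Every fasted mouse was above every fed mouse in both genotypes. The increase was 36.8% in NT+/+ mice, a log2 fold change of 0.45 ± 0.07 (adjusted p = 0.000159, edgeR), and 43.0% in NT-/- mice, a log2 fold change of 0.52 ± 0.08 (adjusted p = 6.51e-05, edgeR). On log2 TPM values the NT+/+ change was 0.38 and missed the threshold (adjusted p = 0.0723, limma).

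Gata4, known for holding the jejunal program apart from the ileal one (chr14:63198922-63271692), did not pass the test in either genotype. It averaged 125 ± 12.5 CPM in fed and 136 ± 11.6 CPM in fasted NT+/+ mice (SD, n = 5), with a log2 fold change of 0.13 ± 0.11 and a 95% interval of -0.10 to 0.35 (adjusted p = 0.45, edgeR). Its NT-/- means were 135 ± 25.2 CPM (n = 4) and 139.5 ± 18.3 CPM (n = 5), a log2 fold change of 0.05 ± 0.12 with an interval of -0.19 to 0.29. Though not called, Gata4 was higher when fasted in 5 of 5 NT+/+ and 2 of 4 NT-/- pairs with the same file number. Fed and fasted ranges overlapped in both genotypes.

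Neither CDX factor passed the test without a block. Cdx2, the main determinant of intestinal fate (chr5:147300805-147307270), stood at 166, 134, 114, 136 and 129.8 CPM in fed NT+/+ mice and at 180.5, 161, 149.6, 169 and 164 CPM in fasted NT+/+ mice. Fed mouse 1 was the single fed mouse within the fasted range. The log2 fold change was 0.28 ± 0.11 (adjusted p = 0.0832, edgeR), and without fed mouse 1 it was 0.36 and passed (adjusted p = 0.0293). In NT-/- mice Cdx2 averaged 148 ± 22.7 CPM when fed and 167 ± 25.8 CPM when fasted, with a log2 fold change of 0.17 ± 0.12 and a 95% interval of -0.08 to 0.42 (adjusted p = 0.324, edgeR). With the file number as a block Cdx2 was called higher in both, by 0.29 ± 0.07 in NT+/+ (adjusted p = 0.0041, edgeR) and 0.22 ± 0.07 in NT-/- mice (adjusted p = 0.0305, edgeR), and it was higher when fasted in 5 of 5 and 3 of 4 pairs.

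Cdx1, on chromosome 18, which is a Wnt-responsive relative of Cdx2 found mainly in crypts, had the log2 fold change nearest to 0 in NT+/+ mice. It averaged 112 ± 18.99 CPM in fed and 113 ± 11.0 CPM in fasted NT+/+ mice, and 109.7 ± 8.18 CPM and 106 ± 16.04 CPM in NT-/- mice. The log2 fold changes were 0.00 ± 0.11 and -0.05 ± 0.12, with 95% intervals of -0.23 to 0.23 and -0.30 to 0.19. These intervals leave room for a change of either sign.

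Klf4, a zinc finger factor linked to cell cycle exit and goblet cell maturation (chr4:55527143-55532466), rose in both genotypes. Fed NT+/+ mice stood at 101, 93.7, 78.5, 84.0 and 101 CPM, and fasted NT+/+ mice at 100.1, 131, 179, 119 and 98.7 CPM. Fasted mice 1 and 5 lay within the fed range and fasted mouse 3 lay far above it. Among pairs with the same file number Klf4 was higher when fasted in 3 of 5 and lower in 2. The differences ran from -0.03 to 1.19 on the log2 scale. The log2 fold change was 0.46 ± 0.14, or 37.2% (adjusted p = 0.025, edgeR). This call rested on single mice: without fasted mouse 3 the change was 0.29 (adjusted p = 0.0873), and without fed mouse 3, fed mouse 4 or fasted mouse 2 the adjusted p was 0.0664, 0.0576 and 0.0529. On log2 TPM values it was 0.37 (adjusted p = 0.166, limma).

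The rise of Klf4 in NT-/- mice was clear of the fed range. Fed mice stood at 91.9, 93.4, 84.2 and 103 CPM and fasted mice at 140.5, 144, 158, 104 and 156 CPM. Fasted mouse 4 was just above the highest fed mouse and the other 4 were well above it. The log2 fold change was 0.60 ± 0.15, or 51.1% (adjusted p = 0.00646, edgeR).

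Klf5, the crypt counterpart of Klf4 (chr14:99298691-99315036), did not pass the test. It stood at 757, 714, 669, 648 and 687 CPM in fed NT+/+ mice and at 903, 816, 546, 716 and 829 CPM in fasted NT+/+ mice. Fasted mouse 3 was below every fed mouse, while fasted mice 1, 2 and 5 were above every fed mouse. In NT-/- mice fed values were 712, 645, 651 and 714 CPM and fasted values were 818, 758, 501, 695 and 739 CPM, with fasted mouse 3 again the lowest. Though not called, Klf5 was higher when fasted in 4 of 5 NT+/+ and 4 of 4 NT-/- pairs with the same file number. The log2 fold change was 0.13 ± 0.13 in NT+/+ mice (adjusted p = 0.499, edgeR) and 0.05 ± 0.13 in NT-/- mice (adjusted p = 0.846, edgeR), and the coefficient of variation was 6.08% and 5.54% in the fed groups against 18.1% and 17.2% in the fasted groups.

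Elf3 (chr1:135253575-135258568) fell in NT-/- mice, the only call of a lower factor that edgeR made without a block. Fed NT-/- mice stood at 399, 319, 323 and 287 CPM and fasted NT-/- mice at 269, 219, 149, 168 and 208 CPM, so that every fasted mouse was below every fed mouse. The fall was 0.71 ± 0.16 on the log2 scale (adjusted p = 0.00315, edgeR), and the mean fell from 332 ± 47.9 CPM (n = 4) to 203 ± 47.1 CPM (n = 5).

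In NT+/+ mice Elf3 had values of 414, 306, 326, 320.3 and 301 CPM when fed and 339.6, 225, 278, 203 and 247 CPM when fasted. Fasted mouse 1 lay above 4 of the 5 fed mice and the other 4 fasted mice lay below all of them. The log2 fold change was -0.37 ± 0.15 with a 95% interval of -0.69 to -0.05 (adjusted p = 0.0956, edgeR). With the file number as a block it was -0.37 ± 0.10 and passed (adjusted p = 0.0102, edgeR), with Elf3 lower when fasted in 5 of 5 pairs. Without fasted mouse 1 it was -0.48 (adjusted p = 0.0268), and on log2 TPM values it was -0.44 (adjusted p = 0.0255, limma).

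Promoter sequence, taken from RefSeq for GRCm38.p6 and running from 250 bases before to 50 after a gene's start, was at hand for 4 of the 9 factors. The windows of Elf3, which fell in NT-/- mice, and Klf4, which rose, are shown because these genes moved in opposite directions, and the upstream of the 2 Hnf4a windows because it holds the most kinds of letters that the listed factors are known to bind. Coordinates are chr1:135258423-135258722 on the minus strand for Elf3, chr4:55532426-55532725 on the minus strand for Klf4, and chr2:163506607-163506906 on the plus strand for Hnf4a. Capitals mark matches on either strand. The letters searched were CAAAG, the core of an HNF4 site, then TTTATNG for the CDX factors and AGATAA for the GATA factors. Further searches were for CCACCC, which KLF factors bind, for CCGGAA, the core of an ETS site, for GGGCGG, the GC box that SP and KLF factors bind, and for the TATA box, spelled TATAAA.
Elf3: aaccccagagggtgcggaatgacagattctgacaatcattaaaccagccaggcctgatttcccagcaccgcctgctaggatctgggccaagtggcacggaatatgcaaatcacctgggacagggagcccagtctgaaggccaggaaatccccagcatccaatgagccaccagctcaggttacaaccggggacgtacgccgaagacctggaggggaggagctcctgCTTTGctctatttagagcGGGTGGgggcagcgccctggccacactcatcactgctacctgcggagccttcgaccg
Klf4: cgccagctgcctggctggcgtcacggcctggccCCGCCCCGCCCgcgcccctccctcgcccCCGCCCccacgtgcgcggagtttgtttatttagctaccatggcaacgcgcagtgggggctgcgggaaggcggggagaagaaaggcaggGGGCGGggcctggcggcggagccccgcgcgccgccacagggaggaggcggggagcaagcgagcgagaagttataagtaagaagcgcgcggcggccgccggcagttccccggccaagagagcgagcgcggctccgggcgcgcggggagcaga
Hnf4a: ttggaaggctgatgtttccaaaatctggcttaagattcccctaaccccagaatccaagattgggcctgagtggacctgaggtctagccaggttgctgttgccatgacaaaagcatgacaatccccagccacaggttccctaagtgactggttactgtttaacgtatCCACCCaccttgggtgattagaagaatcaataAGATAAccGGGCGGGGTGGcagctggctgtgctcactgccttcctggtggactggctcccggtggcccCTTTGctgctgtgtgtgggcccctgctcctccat
The Elf3 window held 1 HNF4 match and 1 KLF match. The Klf4 window held 4 GC boxes, of which 2 overlap by 1 base, and no other match, and its GC content was 74.3% against a median of 52.7% over 32851 promoters. The Hnf4a window held 1 HNF4 match, 1 GATA match, 2 KLF matches and 1 GC box, and the GC box overlaps a KLF match by 1 base. Across all promoters of this length 53.9% held the HNF4 letters, 10.9% the CDX letters, 11.2% the GATA letters, 31.5% the KLF letters, 14.9% the ETS letters, 35.7% the GC box and 13.6% the TATA box. A match describes letters in the window and not a bound site.

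The comparison of NT-/- with NT+/+ mice asks whether loss of neurotensin changes these factors at a given diet. No factor passed the test, in fed or in fasted mice (edgeR, 0 of 9 in each; 0.00559% of all tested genes, which is 1 gene, Nts, in each diet). At an unadjusted p under 0.05 there were 0 factors in fed mice, beside 1.67% of all genes, and 1 in fasted mice, beside 9.14%, and DESeq2 and limma also called 0 in each diet. Genotype groups did not overlap for 0 of 9 factors in either diet, beside 0.694% of all genes in fed and 1.56% in fasted mice.

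In ad libitum–fed mice the log2 fold changes ran from -0.03 for Cdx1 to 0.13 for Cdx2, and their 95% intervals reached no lower than -0.35, for Elf3, and no higher than 0.41, for Hnf4g. In fasted mice the factor farthest from 0 was Elf3, with means of 259 ± 53.2 CPM for NT+/+ and 203 ± 47.1 CPM for NT-/- mice. Its log2 fold change was -0.35 ± 0.15 (unadjusted p = 0.0339, adjusted p = 0.488, edgeR), with an interval of -0.67 to -0.03, and the 2 groups overlapped. Klf4 was next at 0.16 ± 0.14, with an interval of -0.13 to 0.45.

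The difference between the effects of fasting in the 2 genotypes was tested for each factor and none passed (edgeR, 0 of 9; 0% of all tested genes; 0 factors and 2.71% of genes at an unadjusted p under 0.05; 0 with DESeq2 and with limma). For Elf3 the difference was -0.34 ± 0.22 on the log2 scale (unadjusted p = 0.14), with an interval of -0.81 to 0.12. The fall of Elf3 in NT-/- mice was therefore not shown to differ from the change in NT+/+ mice. For Hnf4g the difference was 0.02 ± 0.23 with an interval of -0.46 to 0.50, and for Gata6 it was 0.06 ± 0.10 with an interval of -0.15 to 0.28.

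Within families, the balance of the 2 members was described as the ratio of their TPM values in each mouse, with no test, since it restates the levels above. The Hnf4g to Hnf4a ratio averaged 0.447 ± 0.126 (SD) in fed NT+/+, 0.464 ± 0.0380 in fed NT-/-, 0.859 ± 0.217 in fasted NT+/+ and 0.930 ± 0.184 in fasted NT-/- mice. The highest fasted ratios were 1.11 in NT+/+ and 1.17 in NT-/- mice, with Hnf4g above Hnf4a, and the highest fed ratio was 0.624. The Gata6 to Gata4 ratio averaged 0.640 ± 0.0705 and 0.577 ± 0.105 in fed and 0.780 ± 0.0966 and 0.833 ± 0.152 in fasted NT+/+ and NT-/- mice. The Klf4 to Klf5 ratio spread most after fasting, from 0.120 to 0.369 in NT+/+ mice, against 0.126 to 0.160 when fed. The Cdx2 to Cdx1 ratio averaged 0.939 ± 0.158 in fed and 1.13 ± 0.138 in fasted NT+/+ mice.

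**Figure D3:**
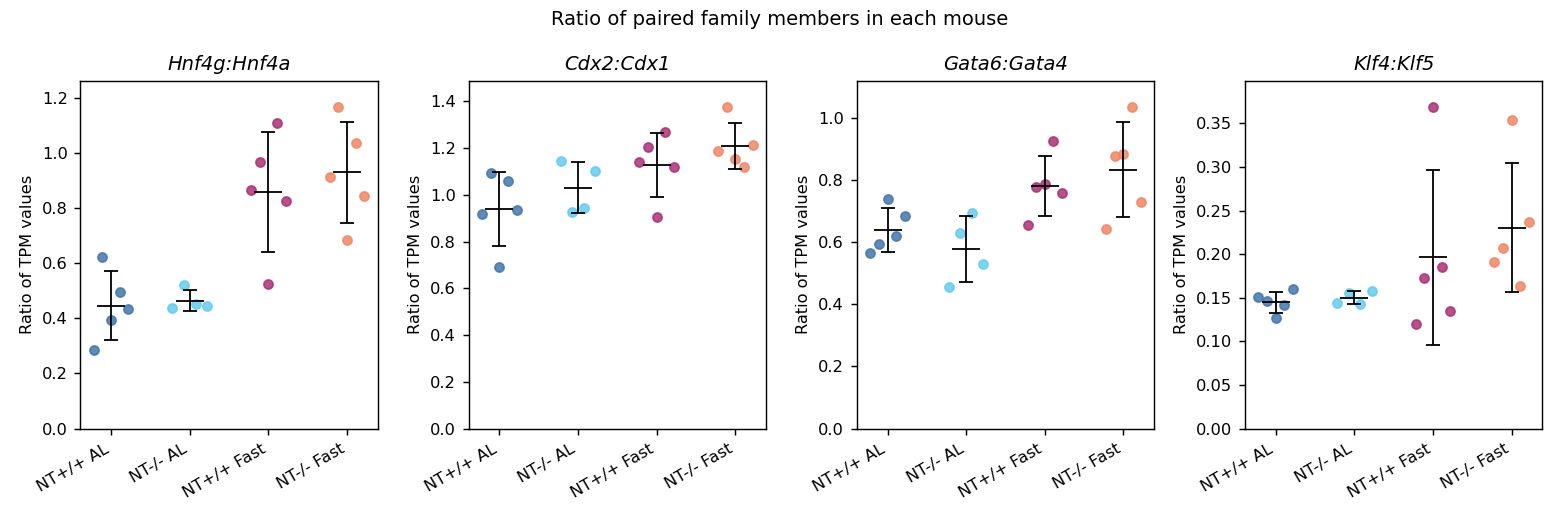
Ratio of TPM values between the 2 members of each family (vertical axis, from 0) in every mouse, by genotype and diet (horizontal axis). Points are mice and black marks the mean and SD; the Hnf4g to Hnf4a ratio lies between 0.284 and 0.624 in fed mice of both genotypes and between 0.524 and 1.17 in fasted mice.

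Among 9949 other genes of sufficient level, the genes whose log2 CPM followed each factor most closely over the 19 mice were listed as a description, since these mice share diet groups and library scaling. Hnf4g and Gata6 had the same closest pair, Numb, which encodes an inhibitor of Notch signaling, and Acot4, a peroxisomal acyl-CoA thioesterase. Pearson's r was 0.946 and 0.924 for Hnf4g and 0.973 and 0.952 for Gata6. Klf4 was closest to Pacsin2 (r = 0.950) and C77080 (r = 0.937), Elf3 to Cactin (r = 0.957) and Eppk1 (r = 0.953), Hnf4a to Vasp (r = 0.932) and Chchd4 (r = 0.921), and Cdx1 to Psmb6 (r = 0.949) and Eif3g (r = 0.946). Klf5 was closest to Ddi2 (r = 0.896) and to Myc (r = 0.893), the Wnt target that drives growth. Cdx2 was closest to Bahd1 (r = 0.893) and Rbm38 (r = 0.882), and Gata4 had the lowest top values, 0.783 with Fbxo42 and 0.768 with Mfap3.

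Other transcription factors of the epithelium changed in 1 direction where they changed. Of 16 such factors 6 rose and 0 fell with fasting in NT+/+ mice, and 8 rose and 0 fell in NT-/- mice, with median log2 fold changes of 0.21 and 0.22, and limma on log2 TPM values called 3 and 5. Beside these counts and those of the lists below, 21.6% of all tested genes were called in NT+/+ mice (11.2% higher, 10.4% lower). In NT-/- mice 25.2% were called (12.5% higher, 12.6% lower). Creb3l3, a membrane-bound factor of the fasting response, went from a mean of 66.1 to 221 CPM in NT+/+ mice (log2 fold change, 1.74 ± 0.19) and from 68.5 to 269 CPM in NT-/- mice (1.97 ± 0.21). Nr1h4, the bile acid receptor, rose by 0.73 ± 0.13 and 0.82 ± 0.13 on the log2 scale. Rxra, its partner, rose by 0.49 ± 0.08 and 0.51 ± 0.09, and Vdr, the vitamin D receptor, rose by 0.30 ± 0.08 and 0.40 ± 0.08.

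In the families of Klf4 and Elf3 the other genes that passed without a block rose, beside 21.6% and 25.2% of all tested genes called. Of 13 other KLF genes 12 were tested, and 2 rose and 0 fell in each genotype. These were Klf15, at 3.60 and 9.72 CPM in fed and fasted NT+/+ mice (1.44 ± 0.24) and 1.22 ± 0.26 in NT-/- mice, and Klf11, with log2 fold changes of 0.90 ± 0.24 and 1.36 ± 0.26. In NT+/+ mice limma called 1 KLF gene. Klf9 had -0.25 ± 0.14 and -0.30 ± 0.15, without passing. Of 13 other ETS genes 12 were tested. Ets1 rose in both genotypes, by 0.54 ± 0.14 and 0.54 ± 0.15, Elf4 rose in NT-/- mice by 0.26 ± 0.08, and 0 fell. With the block 3 ETS genes were called in NT+/+ mice, against 1. Spdef, the ETS factor of goblet and Paneth cells, had -0.91 ± 0.34 in NT-/- mice (adjusted p = 0.0546, edgeR).

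Among the brush border, digestion and lipid transport genes listed, those that passed the test rose. Whether the 9 factors act on these genes in these crypts was not tested. Of 27 brush border and digestion genes 13 rose and 0 fell in NT+/+ mice (median log2 fold change, 0.45), and 21 rose and 0 fell in NT-/- mice (median, 0.70). In NT+/+ mice the brush border count was 9 without fed mouse 1, the mouse with the dominant CT010467.1 count, and 5 with limma on log2 TPM values. Of 12 lipid transport genes 11 and 12 rose, with medians of 1.23 and 1.61, and limma called 7 and 9. Fabp1, a fatty acid binding protein, went from a mean of 217 to 923 CPM in NT+/+ mice (2.09 ± 0.23) and from 268 to 1112 CPM in NT-/- mice (2.05 ± 0.25). Mttp, which loads lipid onto lipoproteins, rose by 1.03 ± 0.16 and 1.29 ± 0.17.

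Genes on the jejunal and ileal lists did not all change in the same direction. Of 5 jejunal genes 1 rose and 2 fell in NT+/+ mice, and 2 rose and 1 fell in NT-/- mice. The riser in NT+/+ mice was Fabp1, which is also on the lipid transport list. In NT-/- mice the risers were Fabp1 and Lct, and Lct is also on the brush border and digestion list. Slc40a1, the iron exporter, fell by 2.12 ± 0.22 and by 1.61 ± 0.23 on the log2 scale, while Lct, the lactase gene, rose by 0.86 ± 0.30 in NT-/- mice. Of 4 ileal genes 3 rose in NT+/+ and 2 in NT-/- mice. Slc51a and Slc51b, the subunits of the bile acid exporter, rose in both, by 0.54 ± 0.13 and 0.84 ± 0.22 in NT+/+ mice. Fabp6, the ileal bile acid binding protein, did not pass. Genes listed as stomach genes summed to at most 5.39 CPM in any mouse, and of the 10 listed the 2 that could be tested, Gkn3 and Atp4a, did not pass. Most of that sum was Gkn3, with means of 2.03 and 1.43 CPM in fed and fasted NT+/+ mice and 2.94 and 1.82 CPM in NT-/- mice. The sum is thus largely a measure of 1 gene, and whether that gene marks stomach identity in crypts was not tested.

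**Figure D4:**
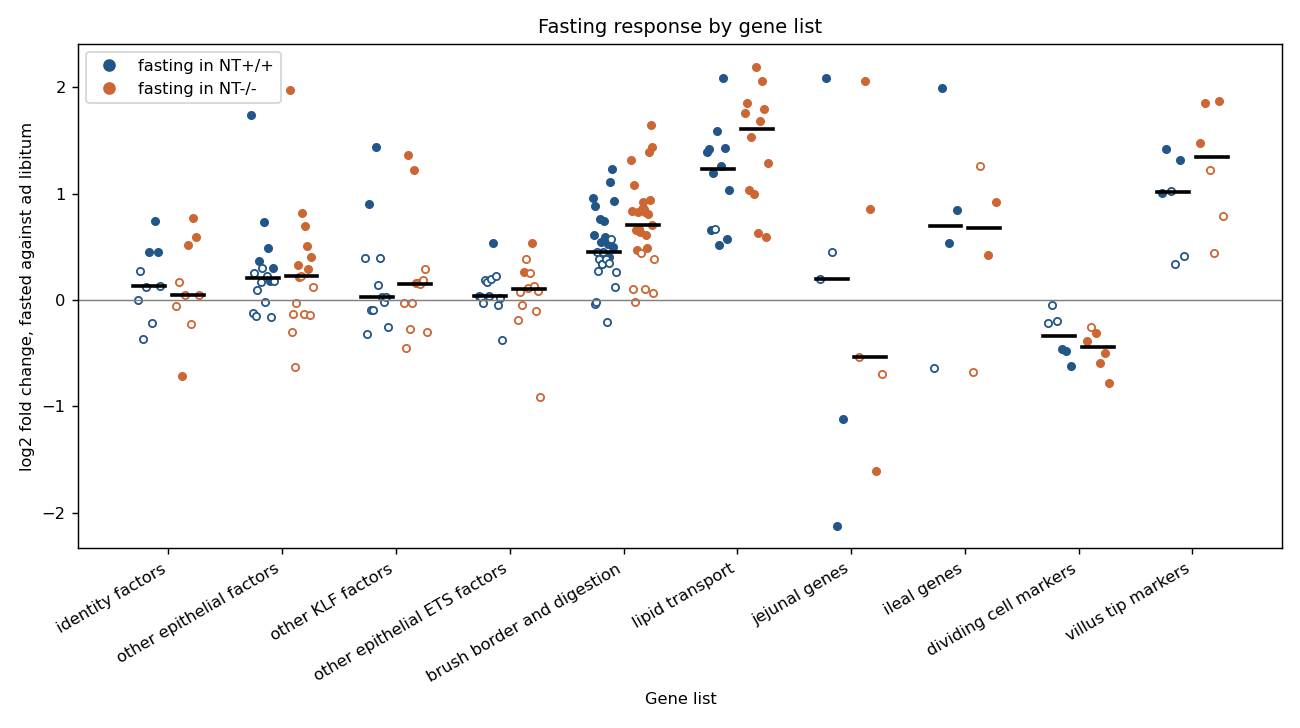
Log2 fold change of every tested gene of 10 gene lists (vertical axis), for the fasting comparison within each genotype, with the list on the horizontal axis. Filled points are genes called by edgeR at an adjusted p under 0.05, and black bars are medians; the identity factors lie around medians of 0.13 and 0.05, and lipid transport genes around 1.23 and 1.61.

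Markers of cell types also moved with fasting. Of 6 villus tip markers 3 rose and 0 fell in each genotype, and their summed level was 707 to 2076 CPM in fed and 1382 to 4857 CPM in fasted NT+/+ mice, and 888 to 2256 CPM in fed and 3316 to 4841 CPM in fasted NT-/- mice, with 0 markers at 0. In NT+/+ mice 2 of these markers were called without fed mouse 1, and 1 with limma. Of 6 dividing cell markers 3 and 5 fell, and their sum was 1574 to 1788 CPM in fed and 1036 to 1387 CPM in fasted NT+/+ mice, and 1509.9 to 1648 CPM and 915 to 1179 CPM in NT-/- mice. The part of these shifts in the changes of Hnf4g, Klf4 and Elf3 was not tested. Goblet markers, of which 6 were tested, rose in 1 and fell in 2 cases in NT+/+ mice, and rose in 1 and fell in 4 in NT-/- mice. Of 5 stem cell markers 1 fell in NT+/+ mice (Olfm4), 2 fell in NT-/- mice (Olfm4 and Smoc2) and 0 rose. The list was mixed in NT+/+ mice, with log2 fold changes of -0.63 ± 0.21 for Olfm4 and -0.27 ± 0.12 for Smoc2. There Ascl2 had 0.63 ± 0.28, Lgr5 0.29 ± 0.19 and Rgmb 0.06 ± 0.21, and Olfm4 alone passed. Paneth markers and tuft markers had 0 called, enteroendocrine markers 1 rise in each genotype, and leukocyte markers 1 rise in NT-/- and 0 in NT+/+ mice. With the block 3 stem cell markers were called in NT+/+ mice, and in NT-/- mice 2 enteroendocrine, 0 leukocyte and 1 of the stromal, muscle and endothelial markers, against 0 of the last without it.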

How the data were processed

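Total RNA of small intestinal crypts from 19 mice was sequenced by the authors as ribosomal RNA-depleted, single-end libraries. Per the labels and the study's methods, reads were trimmed with Trimmomatic (version 0.39), mapped to GRCm38 transcripts and quantified with RSEM, whose version is not given in the sources used here, and tests used edgeR. The authors deposited, for each gene and mouse, the expected count of RSEM, an unnormalized estimate that shares out reads fitting several genes, and RSEM's TPM, which divides by effective gene length and by the library's sum.

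Expected counts were rounded to whole counts here and scaled with the TMM method, and 17875 genes passing edgeR's filterByExpr were tested with edgeR's quasi-likelihood test (edgeR 4.0.16, R 4.3.3), with 1 coefficient for each of 4 groups, 15 residual degrees of freedom and no covariate. P values were adjusted with the Benjamini-Hochberg method over all genes tested, at a threshold of 0.05. Standard errors were derived from each log2 fold change and its F statistic, and intervals are 95%. The total count per mouse, 9059418 to 35068669, sets the precision, and the lowest count of any factor was 818. Of the gene IDs, 55141 matched a symbol. TPM was used for levels between genes.

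Mice were taken as paired for fasting by the number that opens each deposited file, since the deviations from the group means of same-numbered fed and fasted mice of a genotype correlated above 0.1 in 9 of 9 pairs (r, 0.123 to 0.499), against 7 of 9 for the number in the title. The unblocked fit, chosen first, is given as the result, with the blocked value beside each result whose call it changed. The factors and all gene lists were chosen with earlier results of these data known. The genes named are the 9 factors, Nts, the up to 4 genes of each list other than markers with the smallest p in each fasting comparison (a part of them is given), and the 2 genes with the highest Pearson r to each factor among genes with a mean log2 CPM of at least 3 (prior count of 2). The GC box was added to the motifs after the promoters were seen. Alternatives were no filter, a minimum of 10 counts per mouse, upper quartile scaling, DESeq2 (version 1.42.0), limma (version 3.58.1) on log2(TPM + 0.1), blocks for 2 numberings of the mice, sex as a covariate in the 18 mice with a sex label, the other grouping of fasted NT+/+ mouse 5, fits of only the groups compared, and leaving out each mouse. The scripts were tested on simulated data.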

Additional observations from a re-analysis of the deposited data

Results flagged for a closer look

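Each factor was screened in each group for a single mouse far from the others, 36 sets of 4 or 5 mice in all, and 2 stood out by Dixon's gap ratio, where chance gives about 1 in 20. Klf4 in fasted NT-/- mouse 4 was at 104 CPM, and the other fasted NT-/- mice lay between 140.5 and 158 CPM (gap ratio, 0.725). Elf3 in ad libitum–fed NT+/+ mouse 1 was at 414 CPM, against 301 to 326 CPM in the other 4 mice (gap ratio, 0.749). On the TPM scale that mouse stood at 229 TPM for Elf3, against 195 to 219 TPM.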

How the results depend on the processing

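Over 45 log2 fold changes (9 factors, 5 comparisons) and 10 alternatives, 410 of 441 values kept direction and side of the threshold, 2 lost the call, 12 gained one and 17 changed sign. In 19 fits without 1 mouse each the counts were 797, 4, 2 and 52 of 855. Leaving out single mice gave 2 to 4 factors called for fasting in NT+/+ mice and 4 in NT-/- mice. The number of all genes called then ran from 3022 to 3973 and from 3442 to 4757, was 1 for genotype in fed mice and 1 to 4 in fasted mice (4 without fasted NT-/- mouse 1). Causes of the changes below were not tested.

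The number in the title and the number that opens each deposited file link mice across groups. Deviations of same-numbered mice correlated above 0.1 in 19 of 27 pairs for the title (mean r, 0.184) and in 24 of 27 for the other number (mean r, 0.227), over all groups. Within a genotype every fed and fasted pair of the file number was above 0.1. All sex-labelled mice of a file number had the same sex, whereas title numbers 3 and 4 mixed the sexes. A shared file number therefore also meant a shared sex, and the part of sex in these correlations was not tested. With the title number as a replicate block, 5 factors were called in NT+/+ mice, and with the other number 6, against 3 without a block. In NT-/- mice the blocked counts were 5 and 6 against 4. Calls among all 17875 tested genes rose as well. They were 5006 and 5484 with the title and file numbers in NT+/+ mice, against 3862 without a block. In NT-/- mice they were 5657 and 5672 against 4499. With the file number the calls gained were Hnf4a and Cdx2 in both genotypes and Elf3 in NT+/+ mice, and the block changed no other call of a factor. The title number gained Cdx2 and Elf3 in NT+/+ and Hnf4a in NT-/- mice.

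With limma on log2 TPM, 2424 and 2895 genes were called for fasting in NT+/+ and NT-/- mice, against 3862 and 4499. The gene lists were run under the same alternatives by a choice made after the data were seen. Counts that moved by over 1.5 times ranged, over all alternatives and single-mouse fits, from 5 to 18 for brush border genes (13), 7 to 12 for lipid transport genes (11), 3 to 7 for other epithelial factors (6) and 1 to 4 for villus tip markers (3) in NT+/+ mice. In NT-/- mice other epithelial factors ranged from 5 to 9 (8), dividing cell markers from 3 to 6 (5) and villus tip markers from 3 to 5 (3). Of lists with small counts, other KLF factors ranged from 1 to 3 (2) in NT+/+ and 2 to 3 (2) in NT-/- mice, other ETS factors from 1 to 3 (1) and 1 to 4 (2), ileal genes from 1 to 3 (3) and 1 to 3 (2), stem cell markers from 0 to 3 (1) in NT+/+ mice, jejunal genes from 2 to 5 (3) and leukocyte markers from 0 to 4 (1) in NT-/- mice, and enteroendocrine markers from 0 to 2 (1) in each genotype. Lists with 0 called in NT-/- mice reached 1 for Paneth markers and stomach genes and 2 for stromal, muscle and endothelial markers.

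For genotype in fed mice the count of 1 gene became 0 with at least 10 counts, 3 with DESeq2 and 0 with fasted NT+/+ mouse 5 regrouped, and in fasted mice it became 0, 101 and 0.

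The sign changes were all in values that passed no test. For Cdx1 fasting in NT+/+ gave -0.0047 without a filter and -0.047 with limma, and genotype in fed mice 0.00042 with the file number as a block. With sex as a covariate the genotype value in fasted mice was -0.033 for Cdx2 and -0.025 for Gata4, and the difference of fasting effects for Hnf4g -0.014. Without a filter Elf3 gave 0.0016 for genotype in fed mice. With limma Gata4 gave -0.024 for fasting in NT-/- mice, Gata6 -0.0076 and Hnf4a -0.035 for genotype in fed mice, and Hnf4a 0.022 for the difference. With at least 10 counts Hnf4a gave -0.00057 for genotype in fed mice. With mouse 5 regrouped the difference was 0.028 for Hnf4a and -0.0100 for Klf4, and genotype in fasted mice 0.030 for Hnf4a. Hnf4g gave -0.0056 for the difference with the title block and -0.019 for genotype in fed mice with the file-number block.

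Without single mice, the ranges that crossed 0 were, for the difference of fasting effects, -0.15 to 0.0015 (Cdx1), -0.19 to 0.0017 (Cdx2), -0.16 to 0.059 (Gata4), -0.087 to 0.043 (Hnf4a), -0.092 to 0.13 (Hnf4g) and -0.19 to 0.013 (Klf5). For fasting they were -0.057 to 0.087 (Cdx1, NT+/+), -0.032 to 0.18 (Gata4, NT-/-) and -0.015 to 0.15 (Klf5, NT-/-). For genotype in fed mice they were -0.093 to 0.050 (Cdx1), -0.11 to 0.082 (Elf3), -0.023 to 0.19 (Gata4), -0.058 to 0.064 (Hnf4a), -0.028 to 0.17 (Hnf4g), -0.029 to 0.067 (Klf4) and -0.055 to 0.0018 (Klf5), and in fasted mice -0.062 to 0.079 (Cdx2), -0.019 to 0.088 (Gata4), -0.085 to 0.045 (Hnf4a) and -0.027 to 0.19 (Hnf4g).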
